A study of Saccharomyces cerevisiae with 2 samples.

Results

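The 5.8S rRNA and the internal transcribed spacer 2 (ITS2) were examined nucleotide by nucleotide in the CRAC data of Rbp95. They are adjacent parts of the 35S pre-rRNA of *Saccharomyces cerevisiae*, and all 390 of their nucleotides were taken from the 6858 nucleotides of the deposited 35S pileups, 158 from the 5.8S rRNA and 232 from ITS2. The libraries came from cells in which Rbp95 carries a C-terminal HTP tag (His6 tag, TEV protease site and protein A), in the BY4741 background, and from untagged cells without any HTP fusion. The control strain is BY4741 in the sample labels and BY4742 in the methods. The tagged protein is Rbp95 in the sample labels and the title of the data set, while its design text names Nap1. Both cultures were grown in medium without tryptophan to an OD600 of 0.6 and UV-irradiated for 100 s, the RNA was partially digested with RNase during purification, and the cDNA was amplified in 16 PCR cycles. For the control, the membrane area at the size of Rbp95 was excised although no tagged protein was present, and each library received a different 5′ linker. There was 1 library per condition, so the differences could not be checked against replicates, and p-values are not given.

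The 5.8S rRNA is the short rRNA of the large ribosomal subunit and base-pairs with the 5′ part of the 25S rRNA. It is made from precursors in which ITS2 still joins it to the 25S rRNA. In yeast, the endonuclease Las1 cuts within ITS2 at site C2, the exosome then trims the remaining spacer back to the 3′ end of the 5.8S rRNA, and the exonuclease Rat1 removes the spacer in front of the 25S rRNA. At its 5′ end the 5.8S rRNA exists in a short and a long form, of which the long form keeps a few nucleotides of ITS1. Reads on ITS2 or across its borders can therefore stem only from precursors or excised spacer, whereas reads within the 5.8S rRNA can stem from mature rRNA or precursors, which a pileup cannot tell apart.

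The sequences are given as DNA in the letters of the deposited pileup, because the position of each read stack on them is the main observation. The 5.8S rRNA of the RDN37-1 unit lies at chrXII:455414-455571 and ITS2 at chrXII:455182-455413, both on the minus strand of the R64 assembly. A second annotated unit, RDN37-2, holds the same parts at chrXII:464551-464708 and chrXII:464319-464550. The pileups are labeled RDN37-1, and how reads matching both units were assigned is not given in the sources used here. The values can therefore not be tied to 1 rDNA copy. Capitals mark the stack of the untagged control in the 5.8S rRNA and all nucleotides with Rbp95-HTP hits in ITS2.
5.8S rRNA: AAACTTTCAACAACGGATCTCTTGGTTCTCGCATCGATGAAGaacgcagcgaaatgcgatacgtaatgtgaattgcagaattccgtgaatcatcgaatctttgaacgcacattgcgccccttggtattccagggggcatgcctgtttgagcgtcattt
ITS2: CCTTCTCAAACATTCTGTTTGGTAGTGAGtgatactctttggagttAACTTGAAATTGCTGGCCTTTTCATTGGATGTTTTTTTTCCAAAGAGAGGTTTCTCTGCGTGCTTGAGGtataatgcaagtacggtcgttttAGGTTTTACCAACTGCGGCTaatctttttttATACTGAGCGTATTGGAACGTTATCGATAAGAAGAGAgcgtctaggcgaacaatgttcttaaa

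The number of hits at a nucleotide is the number of reads covering it. Where reads begin the hits step up, and where they end the hits step down, so net starts and net ends were read from these steps. Starts that coincide with ends cancel, which makes the numbers of reads lower bounds. The 35S pileups held at least 97296 reads with Rbp95-HTP and 99994 reads in the control, close to the limit of 100000 set by the authors, so hits do not reflect the depth of the libraries. With Rbp95-HTP, the stretch of the highest peak, around helix H95 of the 25S rRNA, took 66.9% of all hits, compared with 0.0436% in the control, which lowers the share of every other part in this library. Whether PCR duplicates were collapsed is not given in the sources used here. Intervals of shares are 95% Wilson intervals that cover counting error only. Those for numbers of reads and for single nucleotides count each read as independent. Those for the altered shares of whole parts count each hit as independent, although a read adds a hit at every nucleotide it covers. They can therefore be too narrow. The interval given for a ratio of mean hits is not that of a share, and it too covers counting error only.

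Both libraries had reads on the 5.8S rRNA, but only the Rbp95-HTP library had reads on ITS2. With Rbp95-HTP, 302 of the 390 nucleotides (77.4%) had at least 1 hit, against 87 (22.3%) in the control. Over the whole 35S pre-rRNA these percentages were 56.5% for Rbp95-HTP and 18.8% for the control. Hits in both libraries were found on 76 nucleotides, hits with Rbp95-HTP alone on 226, hits in the control alone on 11 and no hits on 77. At least 956 reads began in the 5.8S rRNA with Rbp95-HTP, or 0.983% of the 35S reads (0.922 to 1.05%), compared with 25169 reads or 25.2% in the control (24.9 to 25.4%). In ITS2 at least 405 reads began with Rbp95-HTP, or 0.416% (0.378 to 0.459%), and none in the control, where 3 reads would correspond to 0.0030%. Set against a floor of 3 control reads for the library, reads beginning in ITS2 were at least 138.7-fold higher per 35S read with Rbp95-HTP. A large difference was not particular to ITS2, because the control also had few reads on other parts. At least 958 tagged reads began in ITS1, against 2 control reads, and 4841 against 11 began in the 18S rRNA. The 5′ ETS (992 against 1276) and the 25S rRNA (89144 against 73536) did not differ in this way.

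**Figure D1:**
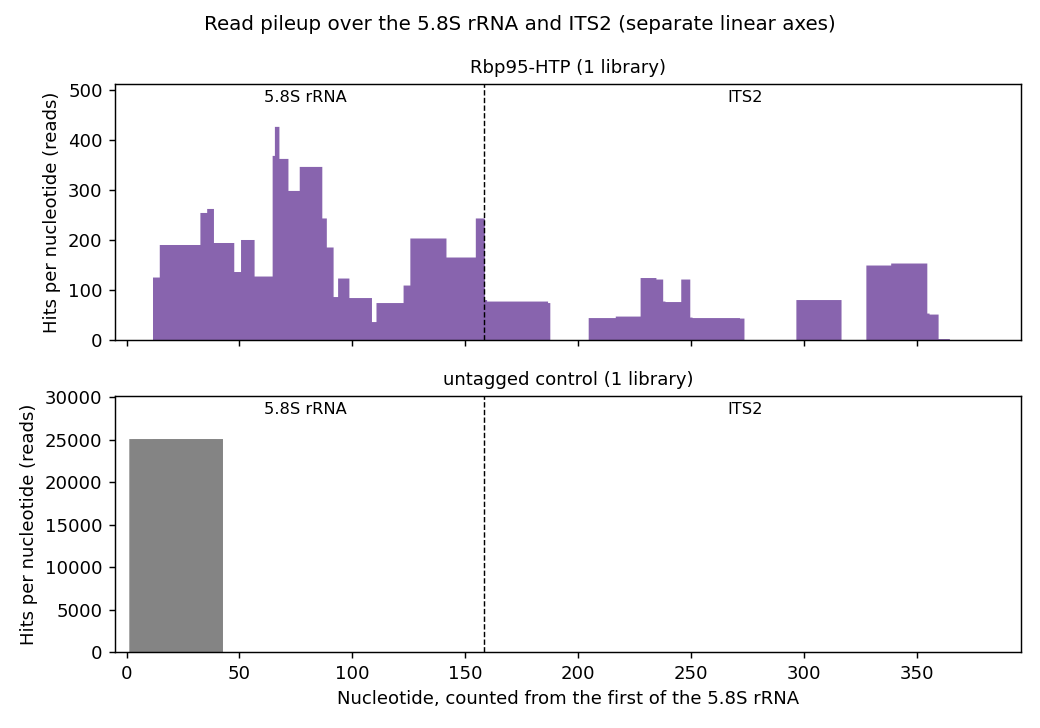
Hits per nucleotide (number of reads) over the 5.8S rRNA and ITS2, in the Rbp95-HTP library above and the untagged control below, on separate linear axes, against the nucleotide counted from the first of the 5.8S rRNA; the dashed line is the border to ITS2. Rbp95-HTP hits reach 427 and extend into ITS2, while the control forms a block of up to 25168 hits over nucleotides 1 to 42 and has no hit in ITS2.

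Within the 5.8S rRNA, the Rbp95-HTP hits were spread over most of the molecule. They covered 147 of the 158 nucleotides, with a median of 191 hits per nucleotide (quartiles 113.5 and 204) and a highest value of 427. The 11 nucleotides without hits were the first 11 of the 5.8S rRNA. The highest point was A66 of the 5.8S rRNA with 427 hits, where the control had none. The stretch that kept 50% of this height ran from nucleotide 65 to 88, with the peak in capitals:
5.8S nucleotides 65 to 88: aAtgtgaattgcagaattccgtga
Further peaks, taken at least 30 nucleotides apart, were G36 with 263 hits, A155 with 244 hits and A96 with 124 hits. The reads began at 13 positions, of which 10 were needed to hold 90% of them. Hits over net starts gave 29.1 nucleotides per read. This is only an estimate, as net starts are a lower bound and hits of crossing reads in ITS2 are left out. The largest net start was 241 reads at A65, or 25.2% of the 5.8S reads, followed by 126 reads at A12 and 94 reads at A126. The largest net end was 163 reads at T158, the last nucleotide of the 5.8S rRNA, followed by 103 reads at T86 and 99 reads at C91.

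In the untagged control, almost all hits of the 5.8S rRNA belonged to 1 stack at its 5′ end. Hits were between 25162 and 25168 at each of nucleotides 1 to 42, and these 42 nucleotides held 99.99% of the 5.8S hits. A net 25162 reads, or 99.97% of the 5.8S reads, began at A1, the first nucleotide of the mature rRNA, and a net 25149 reads ended at G42. Hits over net starts thus gave 42.0 nucleotides per read. Of the other 116 nucleotides, 71 had no hit in the control and the highest had 18 hits, at A43. Nucleotides 77 to 118 were covered by 1 read, which was also 42 nucleotides long. In the 5′ ETS of the control, hits over net starts gave 42 nucleotides per read too, and 40.2 over its whole 35S pileup. Whether a shared read length set the end at G42 was not tested.

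The libraries therefore differed in which part of the 5.8S rRNA they covered. Nucleotides 1 to 42 held 22.1% of the 5.8S hits for Rbp95-HTP and 99.99% for the control, with means of 146.4 hits per nucleotide with Rbp95-HTP and 25167.2 in the control. Nucleotides 43 to 158 held 77.9% of them with Rbp95-HTP, with a mean of 186.6 hits per nucleotide and no nucleotide below 37, compared with a mean of 0.552 in the control. At A12, the first 5.8S nucleotide covered with Rbp95-HTP, this library had 126 hits and the control 25168. In the 5.8S rRNA and ITS2, 308 nucleotides had at least 10 hits in either library. Of these, 266 (86.4%) held a share of the 35S hits at least 2 times higher with Rbp95-HTP. The other 42 (13.6%), those of the control stack, held a share at least 2 times lower. Among the 3763 nucleotides of the whole 35S pre-rRNA with this minimum, the percentages were 93.1% and 6.14%. At 265 of the 266 the control had at most 3 hits, so the minimum was passed only through Rbp95-HTP and the count follows from it.

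On ITS2, the Rbp95-HTP hits formed 4 blocks separated by nucleotides without any hit. Hits were found on 155 of the 232 nucleotides, with a median of 45 and a highest value of 154 hits, whereas no ITS2 nucleotide had a hit in the control. The first block continued from the 5.8S rRNA and ended at G29 of ITS2, with 75 to 81 hits per nucleotide within ITS2. The remaining blocks are printed with capitals for the nucleotides that had at least 50% of the highest hits of their block.
ITS2 nucleotides 47 to 115: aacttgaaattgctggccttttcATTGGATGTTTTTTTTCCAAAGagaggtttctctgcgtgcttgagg
ITS2 nucleotides 139 to 158: AGGTTTTACCAACTGCGGCT
ITS2 nucleotides 170 to 206: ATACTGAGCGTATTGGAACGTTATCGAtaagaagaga
They lie at chrXII:455299-455367, chrXII:455256-455275 and chrXII:455208-455244 of the RDN37-1 unit. The block at nucleotides 47 to 115 had 44 to 125 hits per nucleotide from at least 170 reads, with its peak at A70. The block at nucleotides 139 to 158 was flat, with 81 hits at each of its 20 nucleotides, 81 net starts at A139 and 81 net ends at T158. The block at nucleotides 170 to 206 held the highest ITS2 value, 154 hits at A181, and the largest ITS2 start, a net 150 reads at A170, and the largest net end was 100 reads at A196.

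The gaps between the blocks were 17, 23 and 11 nucleotides long, and the last 26 nucleotides of ITS2 had no hits. T made up 41.6% of the 77 ITS2 nucleotides without hits and 34.8% of the 155 with hits. In the control, ITS1 had no more than 1 hit at any nucleotide.

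Relative to the mature rRNA, ITS2 was covered less with Rbp95-HTP. The mean was 175.9 hits per nucleotide for the 5.8S rRNA and 55.0 for ITS2, a ratio of 3.20 with a counting interval of 2.85 to 3.59. No such ratio can be given for the control, which had a mean of 6690.4 hits per nucleotide on the 5.8S rRNA and none on ITS2. Compared with the other spacers, the mean of ITS2 with Rbp95-HTP was 0.719 times that of ITS1 (76.6 hits per nucleotide) and 1.26 times that of the 5′ ETS (43.7), while the 3′ ETS had no hits. In the control the 5′ ETS had a mean of 76.6 hits per nucleotide, 99.6% of its reads in 1 start, ITS1 had 0.205, and ITS2 and the 3′ ETS had none. Among the mature rRNAs, the mean of the 5.8S rRNA with Rbp95-HTP was 2.36 times that of the 18S rRNA and 0.804 times that of the 25S rRNA without its highest peak. In the control it was 7.72 times that of the 25S rRNA without the same stretch, while the 18S rRNA had a mean of 0.233. In the 25S rRNA of the control, 4 starts held 90% of the reads.

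**Figure D2:**
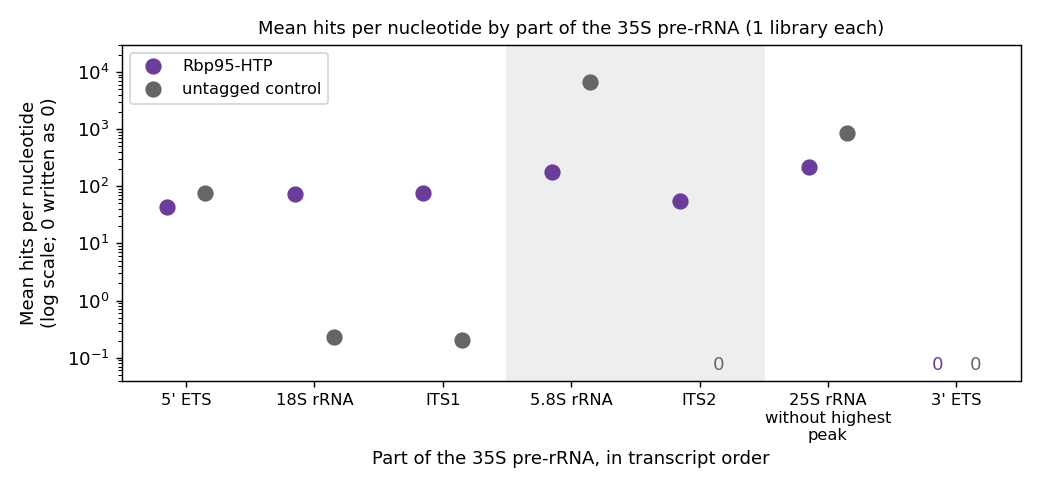
Mean hits per nucleotide (log scale) of each part of the 35S pre-rRNA in transcript order, with Rbp95-HTP to the left of the untagged control in each part, and the 25S rRNA without the stretch of the highest Rbp95-HTP peak; a mean of 0 is written as 0. The shaded 5.8S rRNA and ITS2 have means of 175.9 and 55.0 with Rbp95-HTP, compared with 6690.4 and 0 in the control.

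At the border between the 5.8S rRNA and ITS2, the Rbp95-HTP library had 244 hits on T158, the last nucleotide of the 5.8S rRNA, and 81 hits on C1 of ITS2. A net 163 reads ended at T158, so that at least 66.8% of the reads on the last nucleotide stopped at the mature 3′ end, and at most 81 reads, or 33.2% (27.6 to 39.3%), continued into ITS2. Of these, 3 ended at C1. The other 78 hits matched the net 78 reads that began at A155, in the last 4 nucleotides of the 5.8S rRNA, and 75 of these hits reached G29 of ITS2. The stack is given with the nucleotides of ITS2 in capitals:
Stack across the border: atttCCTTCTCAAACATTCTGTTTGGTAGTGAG
The upper limit of 81 crossing reads was 0.0833% of the 35S reads (0.0670 to 0.104%). The pileup does not show single reads, so a coincidence of ends at T158 with starts at C1 would not be seen. In the control neither T158 nor C1 had a hit.

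No other border of either part was crossed. Between ITS2 and the 25S rRNA, both neighboring nucleotides had 0 hits in both libraries, where 3 reads would be 0.00308% of the 35S reads for Rbp95-HTP and 0.0030% for the control. The last ITS2 nucleotide with hits was A206 with Rbp95-HTP, and the first 25S nucleotide with hits was nucleotide 51 (233 hits) with Rbp95-HTP and nucleotide 212 (2 hits) in the control. Between ITS1 and the 5.8S rRNA, no read could cross in either library, although the control had 25162 hits on A1. The last ITS1 nucleotide with hits lay 49 nucleotides before A1 with Rbp95-HTP and 82 nucleotides before it in the control, so the ITS1 nucleotides of the long form of the 5.8S rRNA had no hits. On the far side of the 25S rRNA, all 465 Rbp95-HTP reads on its last nucleotide ended there and none continued into the 3′ ETS, with an upper bound of 0.819%. The 5.8S rRNA was thus the mature rRNA whose 3′ border had reads that could continue into the spacer. The 3′ border of the 18S rRNA had no hits in either library.

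**Figure D3:**
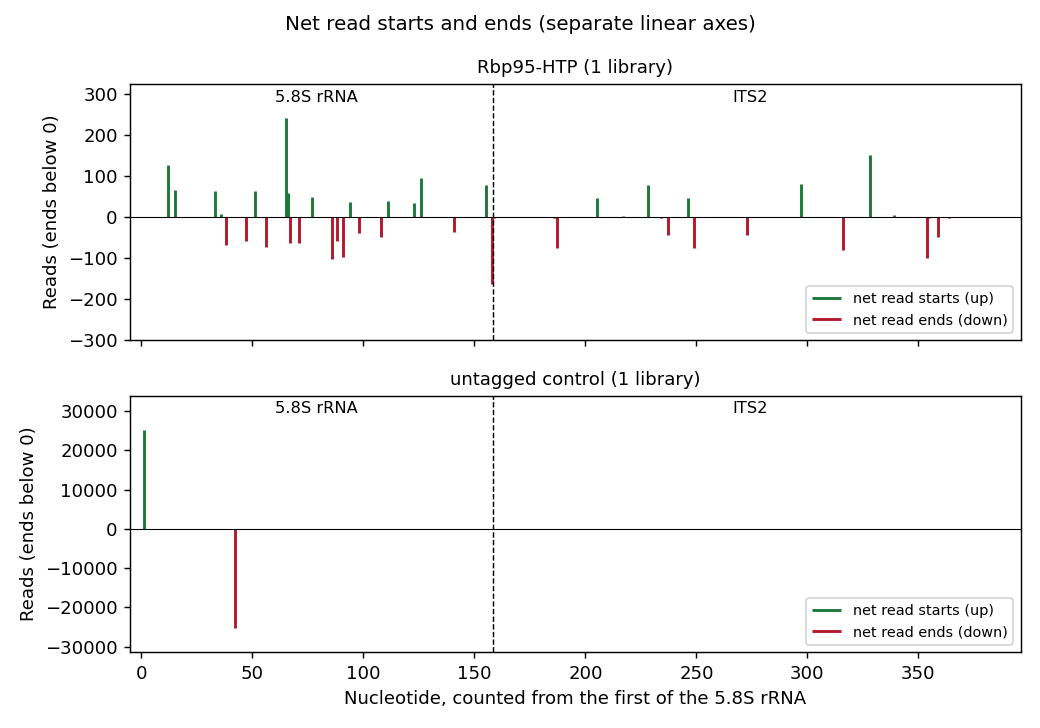
Net read starts (upward) and net read ends (drawn downward) in reads at each nucleotide, counted from the first of the 5.8S rRNA, with Rbp95-HTP above and the untagged control below on separate linear axes; the dashed line is the border to ITS2. Rbp95-HTP starts are scattered over 20 positions and the largest end, 163 reads, lies at the last nucleotide of the 5.8S rRNA, while the control has 25162 starts at nucleotide 1 and 25149 ends at nucleotide 42.

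The read starts also shared a sequence feature. RNace-IT, the RNase mixture used for the digestion, contains RNase A, which cuts after pyrimidines, and RNase T1, which cuts after guanine. With Rbp95-HTP, 18 of the 20 net starts in the 5.8S rRNA and ITS2 followed a C or T, 1 followed G and 1 followed A, while pyrimidines make up 52.1% of these nucleotides. In the rest of the 35S pre-rRNA 83.7% of 263 net starts of at least 3 reads followed a pyrimidine, which was close to the 90% of the starts in the 5.8S rRNA and ITS2. The first base of the read was A at 14 of the 20 starts (70%), compared with 63.1% in the rest of the 35S pre-rRNA. Of the 23 net ends of at least 3 reads, 13 were on a pyrimidine (56.5%), 4 on G and 6 on A, and 52.9% were on a pyrimidine in the rest. In the control, the 5.8S stack began at A1, which follows an A of ITS1, whereas 13 of 15 net starts in the rest of its pileup followed a pyrimidine.

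Altered hits, which are hits with a substitution or a deletion and can mark crosslinked nucleotides in CRAC, were few in both libraries. In the 5.8S rRNA 115 of 27798 hits were altered with Rbp95-HTP, or 0.414% (0.345 to 0.496%), compared with 3092 of 1057088 in the control, or 0.293% (0.282 to 0.303%). On ITS2 167 of 12766 hits were altered with Rbp95-HTP, or 1.31% (1.13 to 1.52%), and the control had no hits there. None of the 282 altered hits with Rbp95-HTP was a deletion, where 3 deletions would be 0.0074% of the 40564 hits. The control had 21 deletions in the 5.8S rRNA, or 0.00199% of its hits, a share too low to be detected at the depth of the Rbp95-HTP hits.

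A minimum of 100 hits was reached at 162 nucleotides with Rbp95-HTP, and 14 of them (8.64%) had an altered share of 1% or more. For the complete 35S pileup of Rbp95-HTP this percentage was 6.87%. They were 13 of 121 nucleotides in the 5.8S rRNA (10.7%) and 1 of 41 in ITS2 (2.44%). Except at C141 of the 5.8S rRNA, each of the 14 rested on 2 to 4 altered hits, with an interval that began below 1%. The count depended on the minimum, with 37 nucleotides at a minimum of 50 hits and 3 at a minimum of 200 hits. The highest share was at C141 of the 5.8S rRNA, where 37 of 204 hits were substituted, or 18.1% (13.5 to 24.0%). A net 38 reads ended at the same nucleotide. The next highest shares were 2.40% at T76 of ITS2 and 2.34% at C57, 1.82% at T125 and 1.64% at A88 of the 5.8S rRNA, each from 2 to 4 altered hits with intervals that began below 1%. The control had no hits at C141 and no more than 1 at the others, which left no control level for these nucleotides. In the control 1 of 42 nucleotides reached 1%, against 2.67% over its whole pileup. This was T18 of the 5.8S rRNA with 270 of 25168 hits, or 1.07% (0.953 to 1.21%), where 2 of 191 hits were altered with Rbp95-HTP. The following nucleotides of the control were T26 with 0.985%, A41 with 0.787%, T7 with 0.735% and A40 with 0.683%.

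**Figure D4:**
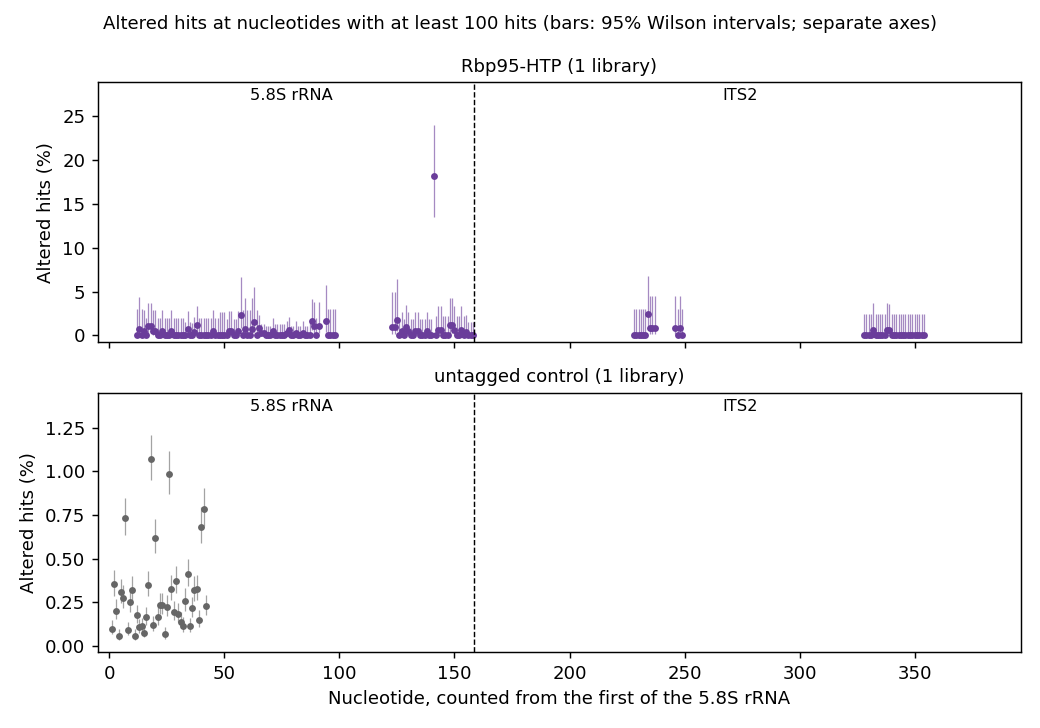
Share of altered hits in percent at each nucleotide of the 5.8S rRNA and ITS2 with at least 100 hits, counted from the first nucleotide of the 5.8S rRNA, with Rbp95-HTP above and the untagged control below on separate axes; bars are 95% Wilson intervals. With Rbp95-HTP nucleotide 141 stands at 18.1% and all other nucleotides are at 2.40% or below, and in the control the highest nucleotide is at 1.07%.

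Below the minimum of 100 hits, 3 nucleotides of ITS2 were altered in every read, and they were named after their values were seen. All 75 hits at G29 and all 44 hits at G115 were substituted, as were the 3 hits at G205. G29 and G115 are the last nucleotides of their blocks, and the surrounding sequences, with the altered nucleotide in capitals, show that both are followed by T.
G29 of ITS2: agtgaGtgata
G115 of ITS2: ttgagGtataa
C141 of the 5.8S rRNA: gcatgCctgtt
These 3 ITS2 nucleotides held 122 of the 167 altered hits of ITS2. The pileup does not give the base that was read in place of the reference. Over both parts, the 23 nucleotides at which at least 3 net reads ended held 174 of the 282 altered hits, or 4.55% of their 3820 hits, compared with 0.294% of the 36744 hits at the other covered nucleotides, where no nucleotide had more than 5 altered hits. C141, G29 and G115 carried 156 of the 174, and the other 20 end nucleotides had 18 altered hits among 3497, or 0.515%. At 11 of these 20 no hit was altered, including T158 and T86 of the 5.8S rRNA and A196 of ITS2. In the rest of the 35S pre-rRNA the shares at end nucleotides and elsewhere were 1.87% and 0.326%. In the control, the corresponding shares in the 5.8S rRNA were 0.226% at 2 end nucleotides and 0.294% elsewhere. The part of read ends in the altered hits was not tested.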

How the data were processed

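Per the paper's methods, the authors trimmed and quality-filtered the sequences with Flexbar, mapped them with Novoalign (genome build R64 in the submitters' processing notes) and used pyPileup of the pyCRAC suite with a length option of 50. Versions are not given in the sources used here. The deposited 35S pileups hold counts: the reads covering each of the 6858 nucleotides and those with a substitution or deletion there, limited to 100000 reads. Class totals and snoRNA lists were not used here.

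Borders were taken from the parts of RDN37-1 in the R64 gene table. Net starts and ends are the steps of the hits, and reads are the sum of upward steps. For folds, fewer than 3 hits were set to 3. Intervals of shares are 95% Wilson intervals, with summed hits as the count for the altered shares of whole parts. Named positions were, per library and part, up to 5 peaks at least 30 nucleotides apart, the 3 largest net starts and ends, the border nucleotides, and the 5 highest altered shares at a minimum of 100 hits. Nucleotides altered in every read were added after their values were seen. Members and rules were chosen with earlier results of these data known. The steps were tested on simulated data only at positions where starts and ends did not cancel. The bounds on crossing reads and on numbers of reads hold by construction. Python 3.11.15, numpy 2.4.6 and matplotlib 3.10.9 were used.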

Additional observations from a re-analysis of the deposited data

How the results depend on the processing

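Of 33 alternative values, 20 stayed within the counting interval of the reported value or, for counts, within 1.5 times it. Without the stretch of the highest Rbp95-HTP peak in the denominator, the 5.8S rRNA held 2.87% and ITS2 1.32% of the 35S hits with Rbp95-HTP, compared with 0.951% and 0.437% of all 35S hits, because that stretch holds most hits of this library. Counted as reads, the 5.8S rRNA held 25.2% in the control, compared with 26.3% of the hits. With starts within 2 nucleotides added, the largest start held 31.3% of the 5.8S reads for Rbp95-HTP and 99.99% for the control. Without the nucleotide with the most altered hits, the altered share of the 5.8S rRNA was 0.283% for Rbp95-HTP and 0.273% for the control, and that of ITS2 was 0.725% with Rbp95-HTP. At least 1% of hits were altered at 37 nucleotides with Rbp95-HTP at a minimum of 50 hits and at 3 at a minimum of 200 hits, and at least 2% at 3 nucleotides with Rbp95-HTP and 0 in the control. With at least 100 hits in either library, 131 nucleotides were at least 2 times higher with Rbp95-HTP, compared with 266, since fewer nucleotides were examined. No paired analysis was possible because there was 1 library per condition.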

Other observations

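In the untagged control, the depth of the 5.8S stack allowed altered shares to be compared between bases. The median share was 0.350% over 12 T nucleotides (0.234 to 1.07%), 0.290% over 12 A nucleotides (0.0994 to 0.787%), 0.157% over 8 G nucleotides (0.0675 to 0.226%) and 0.113% over 10 C nucleotides (0.0596 to 0.195%), so that the lowest T nucleotide was above the highest C and G nucleotides. In the rest of the control pileup the medians were 0.393% for A, 0.281% for T, 0.179% for C and 0.123% for G. With Rbp95-HTP, the median was 0 for each base in the 5.8S rRNA and ITS2, where the hits per nucleotide were too few to show shares of this size.

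Some net starts with Rbp95-HTP had a net end of equal size downstream, although equal size alone does not assign an end to a start. Of the 17 net starts of at least 10 reads in the 5.8S rRNA and ITS2, 6 had a net end of exactly the same size 15 to 50 nucleotides downstream, compared with 70 of 254 in the rest of the 35S pre-rRNA. They included 58 reads at A66 and A88, 48 reads at A77 and C108 and 38 reads at A111 and C141 of the 5.8S rRNA. These pairs spanned 23, 32 and 31 nucleotides. The last pair was not unique, because A109 and C110 still had 37 hits, the size of the net start at C94. Reads from C94 could also have ended at C141, and those from A111 further downstream. The net starts of 64 reads at A33 and at G51 had net ends of 64 reads at T67 and at A71, which their size also cannot assign to a start. The smallest net starts in the 5.8S rRNA and ITS2 were 8 and 3 reads, and the median was 64 and 45 reads, so stacks rather than scattered single reads made up both parts. This was not particular to them, as the median was also 64 among net starts of at least 3 reads in the rest of the 35S pre-rRNA. The depth of these few stacks limits every share given for ITS2.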
